A study of Mus musculus with 13 samples.

Results

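The HoxD cluster of the mouse, together with the neighbouring gene Evx2, was examined for open chromatin in a fixed window from the 3′ side of Evx2 to beyond Hoxd1, whose first consensus region starts at chr2:74655175 and whose last ends at chr2:74763727. Coordinates there are the same in the wild-type genome and in the mutant genome used by the study. Its 10 genes, out of 20573 protein-coding genes considered, were Evx2, Hoxd13, Hoxd12, Hoxd11, Hoxd10, Hoxd9, Hoxd8, Hoxd3, Hoxd4 and Hoxd1, in order along the chromosome by the starts at which each was examined. All called regions and all separate summits that fell in this window were taken, which came to 209 of 1360887 regions and 300 of 1767915 summits over 13 libraries. Position alone chose these regions and summits, and no measured value served as a filter. The members themselves were chosen with earlier results of these data known.

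The libraries are ATAC-seq (a transposase cuts accessible DNA and tags it for sequencing) of 50000 cells each from B6CBAF1 mouse embryos at stage E12.5. The study asked what happens when a distal limb enhancer is moved into the neighbouring regulatory domain. Distal forelimb (DFL, the future hand), proximal forelimb (PFL, the future forearm) and forebrain (FB) were each taken from wild type (wt) and from embryos carrying allele 542, with 2 biological replicates in each of the 6 groups. Allele 542 holds a single copy of enhancer II1 with a human beta-globin (HBB) promoter and the LacZ reporter, inserted on the telomeric side of the cluster, and it goes back to 1 founder animal. The 542 embryos were homozygous. The wt reads were mapped to mm10 and the 542 reads to a rebuilt mutant genome, so genotype and mapping genome cannot be told apart. A further wt DFL library from earlier work was reanalysed by the authors, and it is called the additional wt DFL library below and enters no comparison.

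Hox genes encode homeodomain transcription factors that pattern the body axis and the limbs, and they lie in clusters whose order along the chromosome matches where they are used. HoxD sits between large regulatory domains on either side. The centromeric one, on the Evx2 and Hoxd13 side, acts on the posterior genes in the digits, and the telomeric one, beyond Hoxd1, acts on the central genes in the forearm. Evx2 is a homeobox gene related to even-skipped, and the forebrain is formed without Hox activity.

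The files give, for each summit, the fold of transposase tags over the local background of the same library. Because no normalisation links the libraries, each fold was turned into its percentile among all summits of its own library, where 100 is the strongest and a feature without a called summit was given 0. A promoter was the window of 500 bp on either side of the gene's principal start. Overlapping regions of the 12 compared libraries were merged into consensus regions, of which 24 of 252061 lay in the window. Estimated depth was 37.5 to 70.7 M tags (M is mega) over these 12 libraries and 78.0 M in the additional one. The fewest tags under any called summit of the window ranged from 12 to 20 per library, so weaker openings were not detectable at this depth and an uncalled site is not shown to be closed.

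The labels were checked with marker promoters. Of 10 tested forebrain markers, 4 (Dlx1, Emx1, Neurog2 and Tbr1) were higher in FB than in limb and 2 were higher in limb, while of 9 limb mesenchyme markers 2 (Tbx2 and Twist1) were higher in limb and 1 (Prrx1) in FB, where 14.8% of all tested promoters were higher in limb and 8.67% in FB. The limb mesenchyme counts are near those shares. The distal marker Hoxa13 was higher in limb than in FB and Sall3 was lower, and Kdr was the 1 blood vessel marker called higher in limb. None of the 4 distal, 5 proximal, 4 muscle or 2 ectoderm markers tested was called between DFL and PFL. Of all tested promoters 0.708% were called higher in DFL and 0.779% higher in PFL, so lists this small could not test the labels by calls. The mean percentile over the distal markers was 73.4 to 77.2 in the DFL libraries and 54.5 to 64.7 in the PFL libraries, without overlap. The mean percentile over the muscle precursor promoters Pax3, Myf5, Myod1 and Lbx1 was 6.6 to 7.24 in the DFL libraries and 17.8 to 31.4 in the PFL libraries, a difference that moves with every DFL and PFL contrast below and whose part in them was not tested. In whole tissue, fewer cells with an open site and less opening per cell cannot be told apart.

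The sequences under the summits that the results turn on are printed here, each because a result below is about that position. A script searched them on both strands for CAATAAA, the core bound by HOX13 proteins, for TGATNNAT, a site for HOX with PBX, and for a core bound by the boundary factor CTCF (CC, 3 free bases, AG, 2 free bases, GGC), and matches are in capitals. The 250 bases upstream of the RefSeq start of Hoxd13 (RefSeq, GRCm38, plus strand, chr2:74667975-74668224) hold the position where DFL cells had their summit and had no match to any of the 3 motifs.
Hoxd13 upstream: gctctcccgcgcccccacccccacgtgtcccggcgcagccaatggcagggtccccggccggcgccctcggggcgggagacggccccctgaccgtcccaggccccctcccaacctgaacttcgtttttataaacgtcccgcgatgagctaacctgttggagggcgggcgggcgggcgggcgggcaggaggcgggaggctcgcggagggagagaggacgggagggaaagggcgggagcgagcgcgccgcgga

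The other sequences are centred on the strongest summit of a consensus region (GRCm38 genome, plus strand). The first 3 are sites outside promoters that were called in all 12 libraries, at chr2:74661885-74662085 upstream of Evx2, at chr2:74673059-74673259 upstream of Hoxd12 and at chr2:74715873-74716073 in the Hoxd3 locus. The next, at chr2:74673750-74673950, was called in DFL and in no PFL or FB library, and the last, at chr2:74740652-74740852, in the wt PFL libraries only among the 12.
Evx2 upstream: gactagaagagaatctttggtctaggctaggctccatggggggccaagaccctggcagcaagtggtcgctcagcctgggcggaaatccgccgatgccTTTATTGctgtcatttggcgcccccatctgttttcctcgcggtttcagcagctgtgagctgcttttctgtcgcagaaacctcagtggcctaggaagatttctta
Hoxd12 upstream, far site: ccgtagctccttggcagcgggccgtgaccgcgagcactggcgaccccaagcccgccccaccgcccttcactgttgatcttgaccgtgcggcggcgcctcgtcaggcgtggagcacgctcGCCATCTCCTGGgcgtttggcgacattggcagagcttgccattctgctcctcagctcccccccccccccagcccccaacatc
Hoxd3 locus: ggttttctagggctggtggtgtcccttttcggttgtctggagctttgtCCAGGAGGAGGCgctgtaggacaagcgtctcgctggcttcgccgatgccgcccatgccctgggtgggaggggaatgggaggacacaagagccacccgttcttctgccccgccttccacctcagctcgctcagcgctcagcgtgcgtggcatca
Hoxd12 upstream, near site: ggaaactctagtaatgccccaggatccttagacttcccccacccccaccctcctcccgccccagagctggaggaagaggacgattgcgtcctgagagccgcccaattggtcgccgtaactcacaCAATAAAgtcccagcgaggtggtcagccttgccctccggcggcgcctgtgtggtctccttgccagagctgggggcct
Hoxd3 intron: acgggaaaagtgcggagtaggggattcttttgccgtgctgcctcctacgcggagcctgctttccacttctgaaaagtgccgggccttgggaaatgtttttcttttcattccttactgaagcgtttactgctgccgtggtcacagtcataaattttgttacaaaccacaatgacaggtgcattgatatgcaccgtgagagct

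The CTCF core stood in 2 of the 24 windows (8.33%), against 7.07% of all 252061 windows of the same length in the genome, which is near that share. Both were among the 5 regions called in all 12 libraries (the far site upstream of Hoxd12 and the Hoxd3 locus site). The share among the genome's regions called in all 12 was not computed, so no link to constant opening can be drawn. The HOX13 core stood in 4 of the 24 windows, against 4.91% in the genome, and 2 of these 4 were the site upstream of Evx2 and the near site upstream of Hoxd12. The HOX-PBX site stood in 1 of the 24, against 8.67%. The 10 genes had 11 RefSeq promoters of 300 bases, in which each motif was found in 2, against 4.6%, 8.85% and 8.61% of all 32851 RefSeq promoters for the HOX13, HOX-PBX and CTCF letters. A match describes the letters only and no binding was measured.

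The map of summits shows how openings were laid out from Evx2 to Hoxd1. DFL libraries had 17 to 19 called regions, PFL libraries 15 to 18 and FB libraries 9 to 13. The 8 limb libraries held 17.1 ± 1.25 (SD, n = 8) regions and the 4 FB libraries 11.2 ± 2.06 (SD, n = 4), a difference of 5.88 with a two-sided exact permutation p = 0.00202, the smallest this design allows. Per 100000 called regions of the library these were 14.9 to 18.8 in limb and 9.11 to 13.8 in FB. The ranges of limb and FB did not overlap in either measure, while FB libraries had depths of 51.4 to 70.7 M tags against 37.5 to 54.5 M in limb. DFL exceeded PFL by 1.25 regions (exact permutation p = 0.286) and 542 differed from wt by -0.667 (exact permutation within tissue, p = 0.556).

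**Figure D1:**
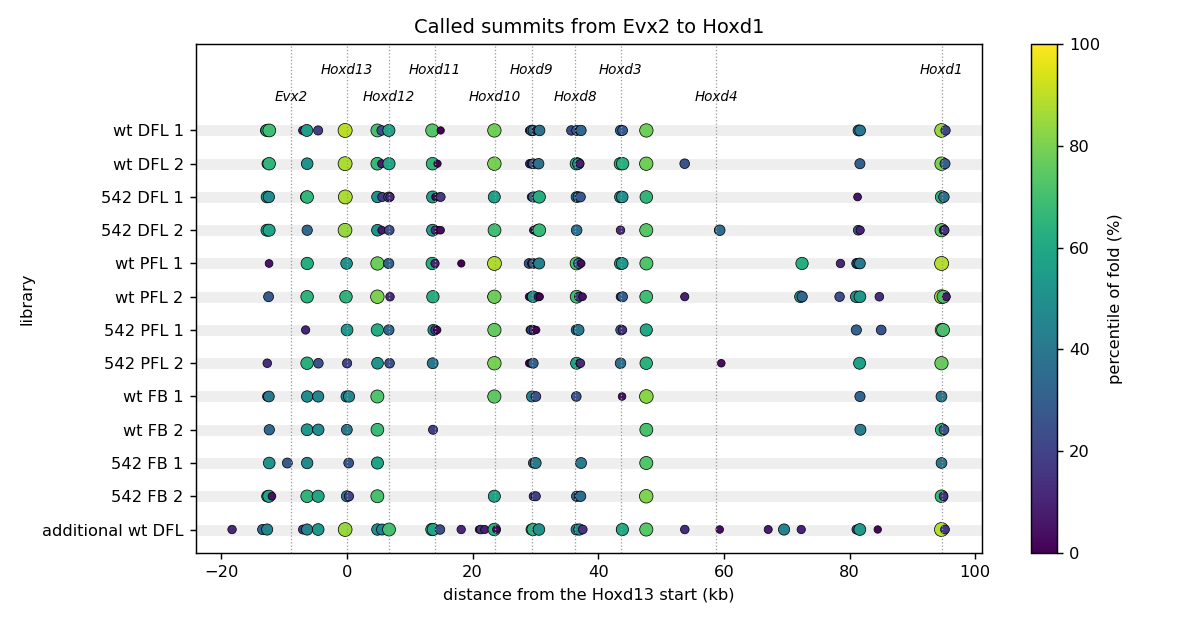
Each row is a library, each point a called summit at its distance from the Hoxd13 start (kb), and colour and size give the percentile of its fold within the library. The gap between Hoxd11 and Hoxd10 and the stretch between the Hoxd3 start and Hoxd1 hold few summits, and the 4 FB rows are emptier from Hoxd12 to Hoxd3 than the 8 limb rows.

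Summits were also split at the midpoint between the Hoxd11 and Hoxd10 starts. On the Evx2 side lay 12 of 31, 11 of 27, 13 of 27 and 11 of 25 summits in wt DFL 1 and 2 and 542 DFL 1 and 2. In the matching PFL libraries there were 8 of 26, 6 of 30, 7 of 21 and 7 of 19. All 4 DFL libraries were above all 4 PFL libraries, with means of 42.9% ± 4.12 and 30.2% ± 7.26 (SD, n = 4 each), a difference of 12.7 percentage points and an exact permutation p = 0.0286, the smallest possible with 4 against 4. In FB 7 of 16, 6 of 10, 5 of 11 and 8 of 17 lay there.

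**Figure D2:**
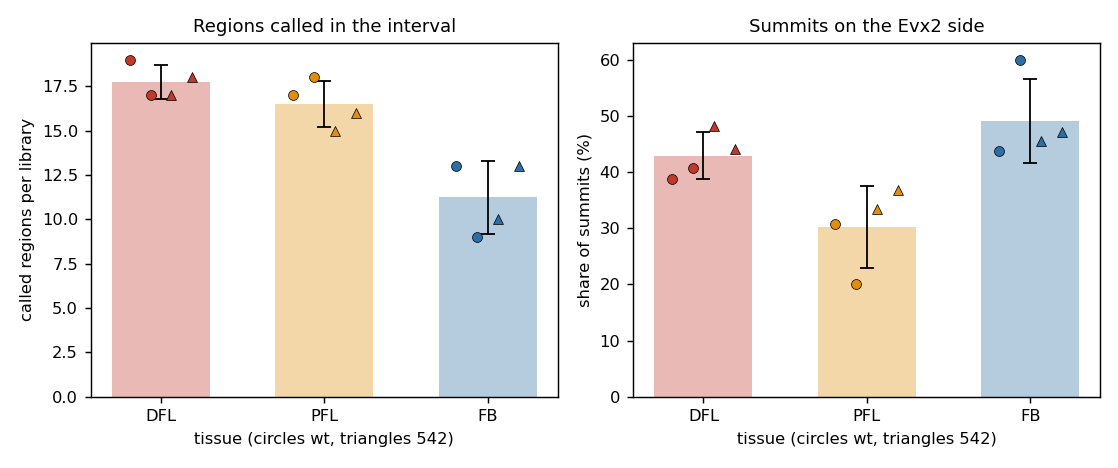
Left, called regions per library by tissue. Right, share of summits (%) on the Evx2 side of the midpoint between Hoxd11 and Hoxd10. Bars are means of 4 libraries with SD, circles are wt and triangles 542. FB had the fewest regions, 9 to 13, and PFL the lowest shares, 36.8% at most.

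Of the 10 genes, 9 had a promoter summit in at least 1 of the 12 libraries. Hoxd13 and Hoxd1, at the ends of the Hoxd series, were called in all 12, the genes between them other than Hoxd4 were called in every limb library and in 0 to 3 FB libraries, Hoxd4 was called in 1 DFL library, and Evx2 had none. The share of tested promoters of the genome called in all 12 was 82.1%.

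**Figure D3:**
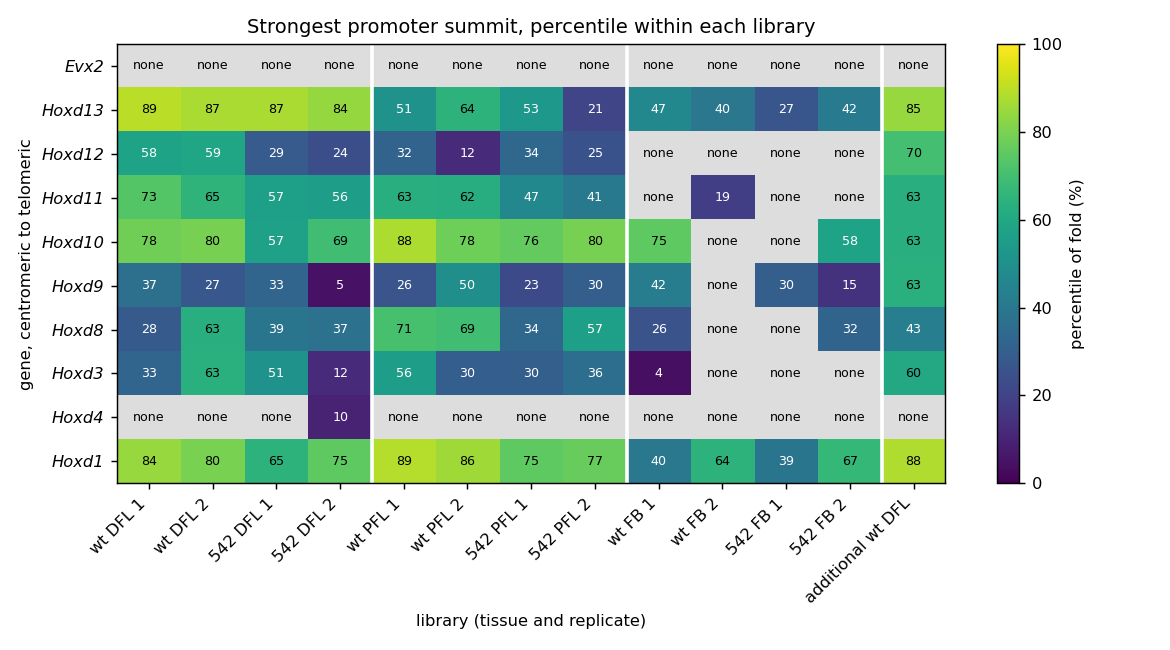
Percentile of the strongest summit within 500 bp of each start, with genes in rows and the 13 libraries in columns. Grey cells marked none had no called summit. The Hoxd13 row is at least 84.3 in every compared DFL library and at most 64.5 in the other compared libraries, and the Hoxd12 row is empty in all FB libraries.

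Hoxd13 (ENSMUSG00000001819.4, start chr2:74668310, plus strand) is the most posterior Hox gene of the cluster and takes part, with Hoxa13, in forming the hands and feet. Its promoter stood at percentiles 89.5 and 87.4 in wt DFL, 87.3 and 84.3 in 542 DFL, 51.1 and 64.5 in wt PFL, and 53.4 and 21.0 in 542 PFL. In FB it stood at 46.5 and 39.7 in wt and 26.8 and 41.8 in 542. Every DFL library lay above every other compared library, and PFL and FB overlapped. The additional wt DFL library read 84.7.

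DFL exceeded PFL at Hoxd13 by 39.6 ± 7.66 (SE) percentile points, with a limma adjusted p = 0.0434 over all promoters and an exact permutation p = 0.0286. It was the 1 gene called of 9 tested, while 0.708% of all 13985 tested promoters were called higher in DFL and 0.779% higher in PFL. The groups also did not overlap, as for 2.59% of promoters in that direction and 2.08% in the other. The adjusted p rose above the threshold without any of 10 of the 12 libraries taken singly, 4 FB libraries included, where the difference was 36.2 to 42.9. In the fit over consensus regions the region at the Hoxd13 start (chr2:74667692-74668786) had the same difference with an adjusted p = 0.00880, and that call held without each library in turn.

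The number of tags showed the same order. Per 10 M tags, the Hoxd13 summit had 35.4 and 43.6 in wt DFL, 28.3 and 30.4 in 542 DFL, 7.59 and 8.92 in wt PFL, 7.66 and 5.60 in 542 PFL, and 3.72 to 5.25 in FB. DFL was thus several times higher than PFL, and PFL was above FB in every library. On the scale of log2(1 + tags per 10 M) DFL exceeded PFL by 2.07 ± 0.17 (SE, limma adjusted p = 0.000245), the median over all promoters being -0.03. It was again the 1 gene called on that scale, where 0.708% of promoters were higher in DFL and 0.486% in PFL.

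The summit also stood at another place. In bp from the start, with negative values upstream, it was at -280, -283, -256 and -298 in wt DFL 1 and 2 and 542 DFL 1 and 2, and at -279 in the additional wt DFL library. In PFL it was at -51 and -146 in wt and 24 and 26 in 542, and in FB at 334 and -4 in wt and 285 and -5 in 542. All DFL positions were upstream of all others, with a DFL mean of -279.2 ± 17.4 bp (SD, n = 4), a PFL mean of -36.8 ± 81.2 bp (SD, n = 4) and an exact permutation p = 0.0286. This test was chosen after the positions were seen. With a window of 250 bp the DFL summit falls outside the promoter, and the Hoxd13 difference turns to -47.5 percentile points. The RefSeq start lies upstream of the principal start used here, and the 250 bases before it hold the DFL summits. Both the distances and the 250 bp result therefore apply to the principal start.

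**Figure D4:**
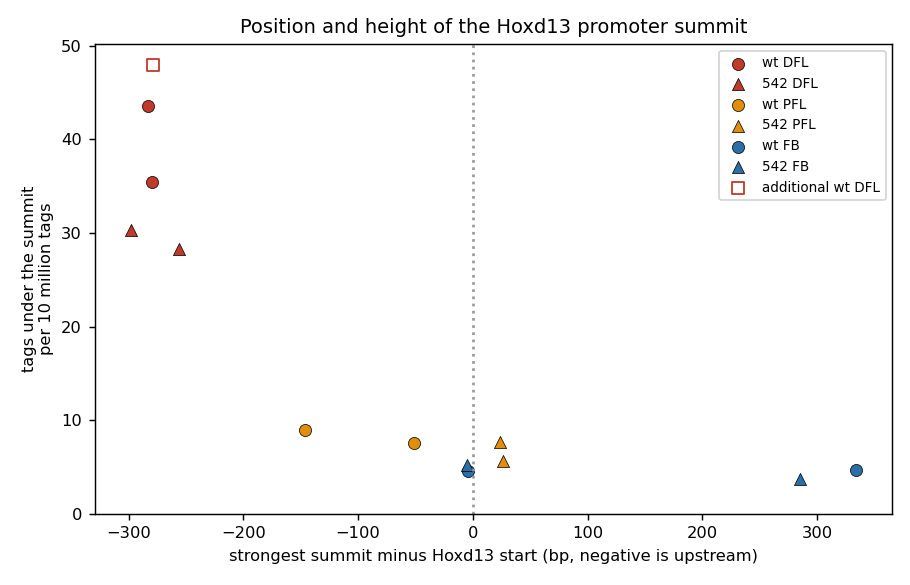
Each point is a library, placed by the position of its strongest Hoxd13 promoter summit (bp from the start, negative is upstream) and by the tags under it per 10 M tags. The DFL libraries form a group near -280 bp and above 28 tags, and PFL and FB lie below 9 tags.

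The same position was computed for the 8 promoters that had a summit in all 8 limb libraries. At the other 7 the DFL and PFL positions overlapped, with differences of -59.2 to 25.5 bp and exact permutation p of 0.2 to 0.886. The Hoxd10 summit lay between -152 and -118 bp in DFL and between -142 and -125 bp in PFL.

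Hoxd12 (start chr2:74675013) is the next posterior gene. Its promoter read 58.0 and 59.2 in wt DFL, 28.7 and 24.0 in 542 DFL, 31.8 and 12.48 in wt PFL, and 33.5 and 25.1 in 542 PFL, and no FB library had a summit. The wt DFL libraries were high and 542 DFL lay within the range of PFL. DFL minus PFL was 16.8 ± 5.14 (SE, limma adjusted p = 0.179) and did not pass. Within wt it was 36.5 ± 7.26 (SE, adjusted p = 0.0830) and within 542 it was -2.93 ± 7.26 (SE, adjusted p = 0.938), and the test of this difference between genotypes gave an adjusted p = 0.330, where 0.0286% and 0.136% of promoters had such a difference higher in wt and higher in 542. In tags per 10 M the DFL libraries had 15.4, 17.7, 9.91 and 10.7 and the PFL libraries 6.97, 5.51, 7.13 and 6.41, so that by tags the tissues did not overlap (log2 difference 0.91 ± 0.20 SE, limma adjusted p = 0.0677 over promoters). In the fit over consensus regions the region at the Hoxd12 start (chr2:74674618-74675320) passed within wt at the same difference (adjusted p = 0.0176) and passed by tags (adjusted p = 0.000812), while its DFL minus PFL difference in percentiles (adjusted p = 0.0761) and the test between genotypes (adjusted p = 0.130) did not.

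Hoxd11, Hoxd10 and Hoxd9 are used in both limb segments and pattern the forearm. Hoxd11 (start chr2:74682323) read 73.3 and 64.8 in wt DFL, 56.5 and 55.6 in 542 DFL, 63.0 and 62.2 in wt PFL, 46.8 and 40.6 in 542 PFL, and 18.6 in wt FB 2 with no summit in the other 3 FB libraries. In both limb segments the 542 libraries lay below the wt libraries. DFL minus PFL was 9.40 ± 5.81 (SE, limma adjusted p = 0.564).

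Hoxd10 (start chr2:74691924) read 78.2 and 79.7 in wt DFL, 57.2 and 69.1 in 542 DFL, 87.6 and 77.8 in wt PFL, 75.8 and 79.6 in 542 PFL. It was the strongest site of the window in both 542 PFL libraries, with FB values of 75.2 in wt FB 1 and 57.9 in 542 FB 2 and no summit in the other 2. Hoxd9 (start chr2:74697727) was weaker, at 4.72 to 36.9 in DFL, 22.6 to 49.7 in PFL, and 42.3, 30.1 and 14.8 in the 3 FB libraries with a summit. The additional wt DFL library read 63.4 at Hoxd9. DFL minus PFL was -9.15 ± 16.4 (SE) at Hoxd10 and -6.79 ± 10.6 (SE) at Hoxd9, and neither passed. The consensus region at the Hoxd9 start (chr2:74697118-74699271) reached past the promoter window, with its strongest summit 1212 bp into the gene. It read 37.7 and 36.4 in wt DFL, 62.0 and 67.0 in 542 DFL, 43.7 and 49.7 in wt PFL, and 22.6 and 30.1 in 542 PFL. The additional wt DFL library read 63.4, within the 542 DFL range, at its promoter summit. DFL minus PFL in this region was 14.25 ± 9.28 (SE, limma adjusted p = 0.492), with -9.7 within wt and 38.2 within 542, none past the threshold.

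Hoxd8 (start chr2:74704615) read 28.4 to 63.0 in DFL and 33.9 to 70.7 in PFL, with 25.7 in wt FB 1 and 32.1 in 542 FB 2. Hoxd3 (start chr2:74711927), an anterior gene of the cluster, read 12.3 to 63.3 in DFL and 30.1 to 56.0 in PFL, with 3.92 in wt FB 1 and no other FB summit. The tissues of the limb overlapped widely at both, and DFL minus PFL was -15.7 ± 10.7 (SE) and 1.69 ± 10.2 (SE), neither past the threshold. The Hoxd3 window also holds a start of Hoxd4 (chr2:74711929), so its values belong to either gene. Other annotated Hoxd3 starts, from chr2:74732913 to chr2:74745722, had no summit within 500 bp in any library.

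Apart from the start it shares with Hoxd3, Hoxd4 had almost no promoter opening. At its principal start (chr2:74727074) 542 DFL 2 alone was called, at 9.81, and at its start chr2:74721978 only wt DFL 2 (25.2), wt PFL 2 (9.30) and the additional wt DFL library (13.1) were called. Its start at chr2:74711929 shares the window of Hoxd3 and cannot be told apart from it. Evx2 (starts chr2:74659419 and chr2:74659557, minus strand) had no summit in its windows in any of the 13 libraries. The nearest was a region of 542 FB 1 at percentile 28.5, with its summit 587 bp inside the gene.

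Hoxd1 (start chr2:74762980), the most anterior gene, was open everywhere. It read 84.5 and 79.9 in wt DFL, 64.6 and 75.3 in 542 DFL, 89.0 and 85.6 in wt PFL, 75.2 and 76.8 in 542 PFL, and 40.0, 64.5, 39.0 and 66.5 in FB. DFL and PFL overlapped (difference -5.57 ± 7.06 SE, limma adjusted p = 0.808), and FB reached into the lowest limb value.

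Against forebrain, 6 of the 9 tested genes were called higher in limb, namely Hoxd13, Hoxd12, Hoxd11, Hoxd8, Hoxd3 and Hoxd1, and none lower, where 14.8% of all tested promoters were higher in limb and 8.67% higher in FB. The differences were 53.2 ± 5.03 (SE, limma adjusted p = 0.000116) at Hoxd11, 34.1 ± 4.45 (SE, adjusted p = 0.000756) at Hoxd12, 38.0 ± 8.79 (SE, adjusted p = 0.0139) at Hoxd3, 35.3 ± 9.27 (SE, adjusted p = 0.0238) at Hoxd8, 28.6 ± 6.63 (SE, adjusted p = 0.0141) at Hoxd13 and 26.4 ± 6.11 (SE, adjusted p = 0.0141) at Hoxd1. At Hoxd12, Hoxd11 and Hoxd3 limb and FB did not overlap, as for 7.60% of promoters higher in limb and 5.13% higher in FB. The Hoxd13 call rests on DFL, since PFL and FB overlapped, and its exact permutation p was 0.0626. Hoxd10 (42.3 ± 14.2 SE, adjusted p = 0.0600) and Hoxd9 (7.0 ± 9.17 SE, adjusted p = 0.617) did not pass, and the median over the 9 genes was 34.1 against 0.17 over all promoters. By tags per 10 M, with uncalled libraries scored 0, 8 of the 9 were called higher, where 25.9% of all promoters were and 21.4% were higher in FB.

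Single FB libraries weighed on these calls. Without 542 FB 1 the number of calls was 2, and without wt FB 2 it was 3. Without 542 FB 1 the calls of Hoxd13, Hoxd8, Hoxd3 and Hoxd1 were lost (limma adjusted p of 0.0553 to 0.108), and without wt FB 2 those of Hoxd13, Hoxd8 and Hoxd3 (0.0695, 0.120 and 0.0690). The Hoxd3 call was lost without any single FB library (adjusted p of 0.0534 to 0.0690).

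The other clusters gave a comparison from a list. Of 31 other Hox and Evx genes 22 had a tested promoter, of which 8 were called higher in limb and 1 (Hoxc13) higher in FB, against the 14.8% and 8.67% of all promoters. Those of HoxA were 7 of 9 tested, with a median difference of 39.3 percentile points, and none of 6 tested HoxB genes was called. Between DFL and PFL only Hoxc4 of the 22 was called, higher in PFL, against 0.779% of all promoters. Counts of 0 or 1 in lists of this size are near the shares over all promoters. The neighbours of HoxD, Lnpk and Mtx2, which are used in many tissues, had mean percentiles of 91.2 to 97.8 in every library and no call in any contrast.

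The promoters whose percentiles over the 12 libraries were most like those of Hoxd13 were Aqp1 (Pearson r = 0.928), Gjb5 (0.925), Mnx1 (0.923), Ccn1 (0.921) and Ret (0.918), which are on other chromosomes. This is a description over 12 libraries that fall into tissues. Within the cluster the correlation with Hoxd13 was 0.713 for Hoxd11, 0.677 for Hoxd12 and 0.495 or lower for the others.

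Between promoters, 13 of the 24 consensus regions lay outside the promoter windows, and 9 of these were called in both libraries of at least 1 group. Among all 24, 5 were called in all 12 libraries (10.7% of the genome's consensus regions were) and 14, 12 and 6 in every DFL, PFL and FB library. No share over the genome was computed for the counts by tissue or for the 9, so they describe this window only. Of the 5, 2 are the Hoxd13 and Hoxd1 promoters, 2 lie between genes and 1 in an exon of Hoxd3os1.

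The far site upstream of Hoxd12 (chr2:74672680-74673365, between Hoxd13 and Hoxd12, 1854 bp upstream of the Hoxd12 start) holds a CTCF core. It read 70.4 and 67.3 in wt DFL, 49.7 and 52.3 in 542 DFL, 77.4 and 80.2 in wt PFL, and 61.4 and 52.3 in 542 PFL. In FB it read 72.5 and 67.7 in wt and 58.3 and 71.1 in 542. The ranges of the 3 tissues overlapped, and in the limb all compared wt values were above all 542 values. The additional wt DFL library, however, read 48.5, below every 542 limb value.

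The Hoxd3 locus site (chr2:74715767-74716328, in an exon of the antisense transcript Hoxd3os1 and an intron of Hoxd3, 4046 bp into the gene) holds the other CTCF core. It ranged over 65.4 to 78.1 in DFL, 59.8 to 72.5 in PFL and 71.0 to 82.3 in FB, and it was the strongest site of the window in FB. Its tags per 10 M, 7.74 to 11.48 in limb and 7.96 to 10.9 in FB, covered the same range, and no contrast passed. The site upstream of Evx2 (chr2:74661530-74662152, 2566 bp upstream) was also called throughout, at 33.3 to 65.9 in DFL, 10.6 to 64.5 in PFL and 48.2 to 65.3 in FB.

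The Evx2 gene body held a tissue-dependent region, at chr2:74655175-74656449 over coding exon and UTR sequence of Evx2, 3458 bp inside the gene. It read 69.4 and 65.5 in wt DFL, 53.7 and 58.1 in 542 DFL, 5.27 and 28.7 in wt PFL, and 13.4 in 542 PFL 2 with no call in 542 PFL 1. FB read 40.0, 33.5, 51.9 and 59.6. All DFL libraries were above all PFL libraries (difference 49.8 ± 5.91 SE, limma adjusted p = 0.00115, exact permutation p = 0.0286), and FB lay between and overlapped DFL. In tags per 10 M, DFL had 8.95 to 12.0 and the called PFL libraries 2.87 to 4.27.

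Between DFL and PFL 3 of the 24 regions were called, the Evx2 gene body and the Hoxd13 promoter higher in DFL and the Hoxd3 intron region higher in PFL, where 6.89% and 6.14% of all consensus regions were called in those directions. Counts of 2 and 1 among 24 regions are near those shares. Without overlap, 3 were higher in DFL and none in PFL, where 5.17% and 3.67% of all were. One of these, the near site upstream of Hoxd12 (chr2:74673732-74674135, 1163 bp upstream), was called in all 4 DFL libraries, at 24.3, 7.54, 18.0 and 6.74, and in no PFL or FB library, a layout that 1.40% of all consensus regions had. The additional wt DFL library had it at 43.3. Its difference of 14.1 ± 4.0 (SE) missed the threshold (limma adjusted p = 0.0593, exact permutation p = 0.0286), and by tags per 10 M it passed (log2 difference 3.27 ± 0.09 SE, adjusted p = 1.16e-06). Every PFL and FB library was scored 0 on both scales for want of a call. The size and SE by tags depend on that score and do not measure the tags present there. It holds the HOX13 core printed above.

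The Hoxd3 intron region (chr2:74740391-74740942, in introns of Hoxd3 and of Gm28230) was called in wt PFL 1 at 61.8 and in wt PFL 2 at 51.4, over 29 and 26 tags, and in no other of the 12 libraries. The additional wt DFL library had it at 10.3. It was called by limma (-28.3 ± 3.29 SE, adjusted p = 0.00106) with 10 of 12 values at 0, and the exact permutation p over 4 against 4 was 0.429. Both wt PFL and no other library was the pattern of 1.45% of all consensus regions, and wt PFL had 48.8 and 52.7 M tags against 37.9 and 37.5 M in 542 PFL. The DFL minus PFL difference in wt minus that in 542 was -56.6 percentile points (limma adjusted p = 0.00815), where 0.849% and 1.36% of all regions had such a difference higher in wt and higher in 542. A weaker region at chr2:74746624-74746899, in an exon shared by Hoxd3 and Gm28230, had the same layout, at 11.7 and 23.8.

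Against FB 7 of the 24 regions were called higher in limb and none lower, where 16.9% and 17.0% of all consensus regions were. Limb and FB did not overlap at 3 regions, the Hoxd12, Hoxd11 and Hoxd3 promoters, each higher in limb, where 5.98% of all were higher in limb and 10.3% in FB. They were the 6 promoters named above and the Hoxd3 intron region, for which the exact permutation p was 0.515. The region 4312 bp upstream of Evx2 (chr2:74663571-74663864) went the other way by percentile, at 45.5, 47.4 and 58.8 in 3 FB libraries and at 19.3 in wt DFL 1 and 25.1 in 542 PFL 2, with no call in the other 6 limb libraries. Its difference of -32.4 ± 10.8 (SE) missed the threshold (limma adjusted p = 0.0517), and the additional wt DFL library read 53.0. Tags did not keep that order where the region was called. Per 10 M tags it had 11.2 in wt DFL 1, 5.34 in 542 PFL 2, 4.67 to 6.61 in FB and 24.5 in the additional wt DFL library.

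Local background gave a broader view, though not a separate one. For each summit the caller computed how many tags the surroundings led it to expect, never below the library-wide level. No control was used, so this expectation came from the same library, and tags under the summit and its neighbours can enter it. The multiple is the expected number divided by the library-wide level. At the Hoxd13 promoter it was 2.63 to 4.08 in DFL, 1.3 to 1.55 in PFL and 1.00 to 1.06 in FB. At the far site upstream of Hoxd12 it was 2.81 to 3.77 in DFL, 1.59 to 1.88 in PFL and 1.00 to 1.11 in FB, so the fold there was taken against a higher level in DFL. The tags at that site were 13.5 to 24.3 per 10 M in DFL, 8.81 to 14.6 in PFL and 5.89 to 9.14 in FB, while the percentiles of fold overlapped. By tags per 10 M 5 of the 24 regions were called higher in DFL and 2 higher in PFL, this site among them as higher in DFL (log2 difference 0.57, limma adjusted p = 0.0343), where 8.53% and 7.49% of all were called higher in DFL and in PFL. Uncalled libraries were scored 0 on this scale, and the 2 higher in PFL had a summit only in wt PFL among the compared libraries. Between limb and FB 13 were called by tags, all higher in limb, where 20.4% and 19.1% of all were called higher in limb and in FB.

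The order of the tissues differed along the cluster, with PFL above DFL without overlap at Hoxd8 only. At Hoxd11 the multiple was 3.22 to 3.65 in DFL and 2.21 to 2.52 in PFL, at Hoxd10 the ranges overlapped (1.66 to 2.31 and 1.82 to 2.26), and at Hoxd8 PFL was higher, at 1.77 to 2.35 against 1.36 to 1.74. At Hoxd1 it was 1.00 in DFL and 1.00 to 1.12 in PFL. Of the 12 regions called in all 8 limb libraries, 5 were higher in DFL without overlap (the site upstream of Evx2, Hoxd13, the far site upstream of Hoxd12, Hoxd12 and Hoxd11) and 1, Hoxd8, was higher in PFL, each with the smallest exact permutation p of 0.0286. Over the genome 8.57% and 7.64% of 41249 such regions had no overlap in those directions. A count of 1 in 12 higher in PFL is near the latter share, and this test was added after the data were seen. Neighbouring regions share surroundings, so the 5 are not independent.

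**Figure D5:**
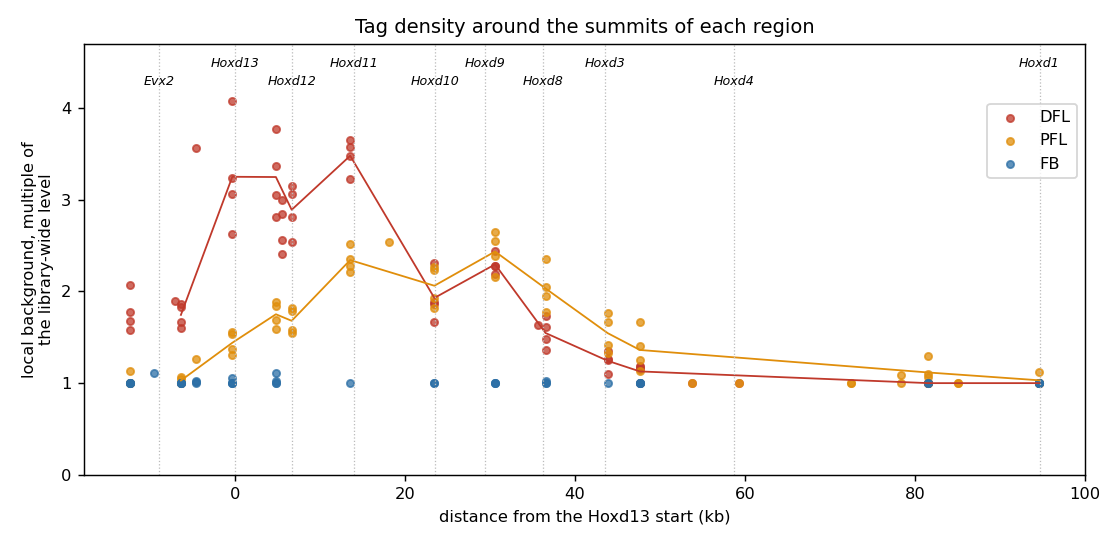
Local background under the strongest summit of each consensus region, as a multiple of the library-wide level, against distance from the Hoxd13 start (kb). Points are libraries and lines join the means of regions called in all 8 limb libraries. DFL stands above PFL from Evx2 to Hoxd11, PFL above DFL at Hoxd8, and FB stays between 1.00 and 1.11.

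Few differences between the genotypes passed the test. None of the 9 tested promoters was called between 542 and wt by limma, with 1 (Hoxd11) at an unadjusted p under 0.05, where 0.207% of all promoters were called higher and 1.85% lower in 542. Of the 9, 8 were lower in 542, with a median of -9.33 percentile points against -0.86 over all promoters. The medians over the tested promoters of the other clusters were -9.62 for HoxA with Evx1, -7.68 for HoxB and -1.1 for HoxC. The drop was thus not particular to HoxD. The largest of the HoxD differences, Hoxd11, was -13.7 ± 4.75 (SE, adjusted p = 0.143, exact permutation within tissue p = 0.0278). At Hoxd12 the difference within DFL was -32.2 ± 7.26 (SE, adjusted p = 0.109).

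Among regions, 2 of 24 were called lower in 542 and none higher, where 3.32% and 0.691% of all consensus regions were. The far site upstream of Hoxd12 fell by 15.1 percentile points (SE 2.75, limma adjusted p = 0.0261, exact permutation p = 0.0185), with -17.9 in DFL, -21.9 in PFL and -5.46 in FB. The additional wt DFL library, outside this comparison, read 48.5 there, below every 542 limb library. By tags per 10 M the site did not pass (log2 difference -0.39, limma adjusted p = 0.115). The Hoxd3 intron region was the other, for which the exact permutation p was 0.333. The region over an exon of Haglr, a noncoding RNA that starts near Hoxd1 (chr2:74749229-74750170), was called in all 8 limb libraries at 5.47 to 56.5 and in wt FB at 31.9 and 42.5, but not in 542 FB. Its difference of -20.1 ± 6.16 (SE) did not pass (adjusted p = 0.143), while by tags per 10 M it was called lower in 542 (log2 difference -0.86, limma adjusted p = 0.00205). The uncalled 542 FB libraries were scored 0 on both scales, and the size by tags rests in part on that score. Depth differed between the genotypes, with a median over all consensus regions of -2.0 percentile points in 542 minus wt, and its part in these differences was not tested.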

How the data were processed

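Each library was peak-called by the authors on its own with MACS2 and no control, after removal of duplicates and of poorly mapped and mitochondrial reads, with tags centred on the transposase cut. The deposited fold is a ratio of tags under a summit to the local background of that library, and a −log10 p-value and a −log10 q-value per summit were deposited beside it. No normalization between libraries entered the deposited values. Fold became a percentile within the library. limma 3.58.1 in R 4.3.3 (trended variance, Benjamini-Hochberg over the whole table, threshold 0.05) was fitted to 6 group means over 13985 promoters and 252061 consensus regions. Features before the integration site on chromosome 2 and on all other chromosomes were used. Principal starts came from GENCODE M21 on GRCm38 (the protein-coding transcript with the best APPRIS tag, then support level, then length). Exact two-sided permutation tests took every assignment of libraries, for genotype within tissue, with smallest p of 0.0286, 0.00202 and 0.00926 for DFL with PFL, limb with FB and genotype.

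For each summit, whole tags were solved for from its fold and p-value (tolerance 0.001), and depth from the most frequent local background. Position and local background tests and the tag scale were added after the data were seen. The fit was tested on simulated data. All 10 genes were named, and of regions outside promoters those called in both libraries of a group. The members and gene lists were chosen with earlier results of these data known. Other settings ranked by q, kept 50000 summits or a −log10 q of at least 10, features called in at least 4 libraries, windows of 250 or 1000 bp, region overlap, summits joined within 150 bp, log2 of the fold, the additional library, a replicate block, or left out each library. Scripts ran in Python 3.11.15 (matplotlib 3.10.9, scipy 1.17.1, pandas 2.3.3, numpy 2.4.6). Some genes of the marker and Hox lists enter the counts and are not reported here by name.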

Additional observations from a re-analysis of the deposited data

Results flagged for a closer look

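There were 3 promoter values that stood apart from the 3 others of their tissue by the gap between samples. These were the Hoxd11 summit of wt FB 2 at percentile 18.6, the Hoxd4 summit of 542 DFL 2 at 9.81 and the Hoxd3 summit of wt FB 1 at 3.92, and in each case the 3 other libraries had no summit and were scored 0. Any single call among 3 zeros stands apart in this way, so the usual chance rate of such a gap does not apply to them.

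At the Hoxd3 intron region the DFL minus PFL difference was not the same in both genotypes. The difference in wt minus that in 542 was -56.6 percentile points (limma adjusted p = 0.00815), and among the 12 compared libraries the wt PFL libraries alone had the region, while the additional wt DFL library had it at 10.3. The share of consensus regions called in this direction over the genome was 1.36%.

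The additional wt DFL library, which entered no comparison, had 6 regions touching the window that overlap no region of the 12 libraries. Their strongest summits inside the window stood at percentiles 7.64 to 45.2 of that library, which also had the largest depth.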

How the results depend on the processing

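The number of called promoters between DFL and PFL (1) became 2 when ranked by q and 0 with a 250 bp window, and 0 to 1 without single libraries. Between limb and FB it (6) became 3 with the 50000 strongest summits, 3 with −log10 q of at least 10, 3 with a 250 bp window and 2 to 6 without single libraries. Between genotypes it (0) became 1 with −log10 q of at least 10. Called regions between DFL and PFL (3) became 7 when ranked by q or by tags per 10 M (mega), 5 with the additional library, with log2 fold or with joined summits, and 3 to 6 without single libraries, 6 without wt DFL 2 and 5 without wt PFL 1 or wt PFL 2. Between limb and FB (7) they became 11 when ranked by q, 13 by tags, 3 with the 50000 strongest and 6 to 10 without single libraries. Between genotypes (2) they became 0 with the 50000 strongest, 1 with features called in at least 4 libraries, with the additional library or with joined summits, and 2 to 4 without single libraries, 4 without wt DFL 2 or wt PFL 2.

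With a 250 bp window the Hoxd13 difference was -47.5 for DFL minus PFL (adjusted p = 0.0843) and -7.75 for limb minus FB, because the DFL summit lies outside that window. The excess of regions in limb was 5.50 to 6.25 without a replicate number (exact permutation p = 0.0667, the smallest possible). The genotype difference turned to 1.56 per 100000 regions (exact permutation p = 0.111) and was -2.33 to 1.00 without a replicate number. The difference in the Evx2-side share was 25.2 with the 50000 strongest (exact permutation p = 0.0857) and 11.4 to 13.9 without a replicate number. The Hoxd13 position difference was -222 to -279 bp without single limb libraries.

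Replicate numbers did not pair the libraries: the correlation of replicate differences between groups was -0.04 to 0.07 over 15 pairs. With the replicate block the called promoters between DFL and PFL fell to 0 (Hoxd13 adjusted p = 0.0685), called regions between genotypes to 1, and the Evx2-side share stayed at 12.7 (exact permutation p = 0.0556).

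Depth and the peak threshold decide which weak summits are listed. An uncalled site was scored 0, which makes the error small where most libraries lack a call.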
